A study of Mus musculus with 6 samples.

Results

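*Lyz1* and *Lyz2* are the 2 mouse genes for lysozyme c, the secreted enzyme that cuts the peptidoglycan of bacterial cell walls. They were chosen by name, with every transcript of theirs in the deposited tables, and are 2 of the 36137 genes measured. RNA was sequenced from bone marrow-derived macrophages (BMDMs) of 3 WT and 3 *Drp1* KO libraries, after 7 days of culture and 8 hours of hypoxia with serum starvation (HSS, at 2.1% oxygen per the labels), so the culture stress was common to both groups. DRP1, encoded by *Dnm1l*, is the GTPase that divides mitochondria. By the study's methods the *Drp1* KO cells came from *LysM*-Cre+/- *Drp1* fl/fl mice and the WT cells from *LysM*-Cre+/- *Drp1*+/+ mice, from animals 8 to 12 weeks old. The Cre line was on a C57BL/6J background. Thus, by these methods, 1 copy of the Cre allele was shared by both groups, and the groups differed by design in the floxed *Drp1* alleles. The background of the floxed line is not given in the methods, and whether the groups differed elsewhere in the genome was not tested. The labels give only the names WT and *Drp1* KO for the genotype. Cells for BMDM cultures came from the combined marrow of 2 mice for each genotype, and whether each library came from a pool of its own is not stated in the sources used here. The labels call the libraries of a group biological replicates. The tests measure the spread between these libraries, and what part of it is between animals is not known.

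*Lyz2* encodes lysozyme M, the lysozyme of macrophages, monocytes and neutrophils, and is among the most abundant mRNAs of a mature macrophage. *Lyz1* encodes lysozyme P, best known as a granule product of the Paneth cells of the small intestine. The *LysM*-Cre allele is a knock-in at *Lyz2*: Cre was placed at the start codon, so that it is made wherever the *Lyz2* promoter is active and the allele that carries it makes no lysozyme M. The comparison of *Drp1* KO with WT therefore asks, at this locus, whether the gene that carries Cre and its close neighbour were expressed alike in both groups. No sequence of Cre was among the targets counted, and the Cre transcript was not analysed here.

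In these cells *Lyz2* was among the most abundant mRNAs, and *Lyz1* was far below it, in WT and *Drp1* KO alike. *Lyz2* did not pass the test between the groups, with a log2 fold change of -0.10 (SE 0.118, n = 3 per group) in *Drp1* KO relative to WT. *Lyz1* was lower in every *Drp1* KO library than in any WT library, as were 10.3% of all genes tested, with a log2 fold change of -0.56 (SE 0.171, n = 3 per group). Its adjusted p did not pass 0.05 in edgeR's quasi-likelihood test on all 6 libraries (0.120), but did with the replicate number as a block (0.0212) and with DESeq2 (0.0297). The share of lysozyme counts assigned to *Lyz1* was 0.910% ± 0.0483 (SD, n = 3) in WT and 0.653% ± 0.106 (SD, n = 3) in *Drp1* KO libraries.

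Both genes lie on the minus strand of chromosome 10 (GRCm39). *Lyz2* (ENSMUSG00000069516) spans 117111557 to 117118346 and *Lyz1* (ENSMUSG00000069515) spans 117123698 to 117128775, with 5351 bases between them. No other measured gene overlapped either of them. Each gene has 4 exons in its main transcript, and each had 1 transcript in the tables, ENSMUST00000092162 for *Lyz1* and ENSMUST00000092163 for *Lyz2*, so a value per gene is also a value per transcript. The tables list these at 1263 bases for *Lyz1* and 1316 bases for *Lyz2*. The GENCODE annotation used here holds later versions, of 1269 and 2995 bases, and places 2469 bases of the longer *Lyz2* model in its 3′ UTR. The *Lyz2* target that the authors counted was thus the shorter one, and annotated transcripts other than these were not in the tables.

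The coding sequences are printed because they show how far the counts of the pair can be separated. They were read from the GRCm39 genome through the GENCODE exons, run 5′ to 3′ from the start codon through base 300, and have in capitals each base that differs between the genes.
Lyz1: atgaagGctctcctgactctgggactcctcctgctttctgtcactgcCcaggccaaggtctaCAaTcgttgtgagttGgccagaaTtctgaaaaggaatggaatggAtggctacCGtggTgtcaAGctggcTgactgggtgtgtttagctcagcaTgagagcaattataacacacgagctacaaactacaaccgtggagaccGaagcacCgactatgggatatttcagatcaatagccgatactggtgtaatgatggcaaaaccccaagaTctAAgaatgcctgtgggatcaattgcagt
Lyz2: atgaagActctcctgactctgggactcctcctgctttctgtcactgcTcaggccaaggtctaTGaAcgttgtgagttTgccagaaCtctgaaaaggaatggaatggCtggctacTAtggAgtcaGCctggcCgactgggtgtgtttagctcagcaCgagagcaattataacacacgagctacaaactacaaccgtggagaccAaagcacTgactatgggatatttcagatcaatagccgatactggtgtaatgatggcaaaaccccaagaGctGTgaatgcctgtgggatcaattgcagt
The stretch shown holds 20 of the differences. Of all 447 coding bases, 425 were identical (95.1%) and 22 differed. By position in the codon, 6 differences fell on the first base, 6 on the second and 10 on the third. They were unevenly spread, since up to 7 fell within a single window of 31 bases while the longest identical stretch ran for 118 bases. Reads are assigned by kallisto through short words, which are 31 bases long by default, and the word length the authors used is not given in the sources used here. Among the 417 windows of 31 bases along the coding sequence, 162 (38.8%) were the same in both genes. Over the whole annotated transcripts 424 words were shared, or 34.2% of the 1239 words of *Lyz1* and 14.3% of the 2965 words of *Lyz2*. These counts rest on the annotated models, and the share for the shorter *Lyz2* target that was counted was not computed. Of the *Lyz1* words, 185 also occurred in 2 other annotated genes, neither of them in the tables. For the longer annotated *Lyz2* model it was 498 words in 364 other genes, of which 264 were in the tables, and within the coding sequence its words occurred, beyond *Lyz1*, only in 1 long noncoding RNA gene that the tables do not hold. A read from a shared stretch carries no base that tells the genes apart, and kallisto divides such reads in proportion to the estimates from the rest. Sequencing was paired-end by the paper's methods, and the word counts do not show how many read pairs lay wholly in shared stretches.

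**Figure D1:**
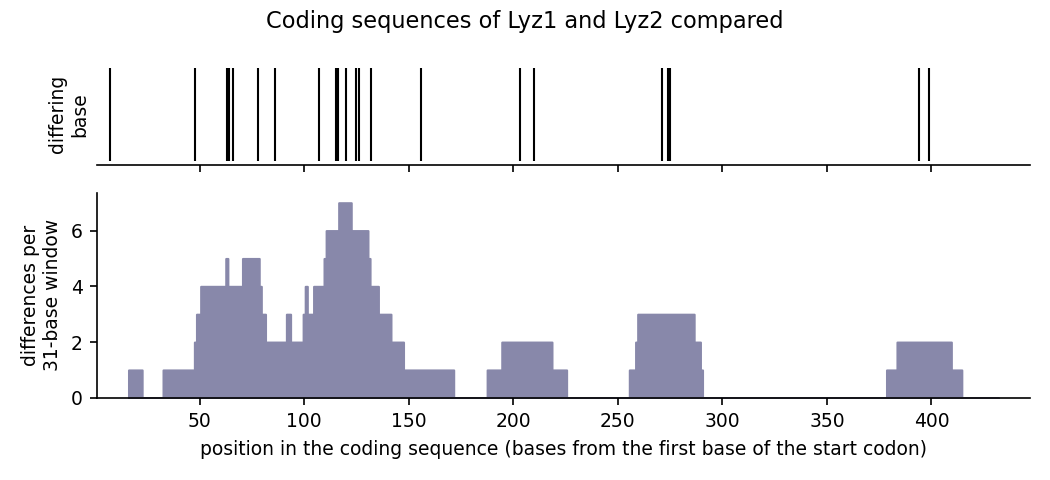
Differences between the *Lyz1* and *Lyz2* coding sequences. The upper row has a line at each differing base and the lower row the number of differences in the window of 31 bases centred on each position, against the position in bases from the start of the coding sequence. The 22 differences lie mostly toward the start, with up to 7 in a window, and windows at 0 are those that both genes share.

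The promoters are printed because *Lyz2*'s also drives Cre. The windows are the 250 bases before the RefSeq start of each gene in GRCm38.p6, on the minus strand, at chr10:117292869-117293118 for *Lyz1* and chr10:117282273-117282522 for *Lyz2*, with in capitals each base that differed, or had no partner, in an alignment of the pair.
Lyz1 promoter: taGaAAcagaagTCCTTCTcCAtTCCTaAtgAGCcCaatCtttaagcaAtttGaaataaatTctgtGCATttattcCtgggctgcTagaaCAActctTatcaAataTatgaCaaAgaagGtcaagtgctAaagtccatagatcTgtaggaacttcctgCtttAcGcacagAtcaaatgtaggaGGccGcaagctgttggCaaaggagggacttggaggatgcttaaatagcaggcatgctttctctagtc
Lyz2 promoter: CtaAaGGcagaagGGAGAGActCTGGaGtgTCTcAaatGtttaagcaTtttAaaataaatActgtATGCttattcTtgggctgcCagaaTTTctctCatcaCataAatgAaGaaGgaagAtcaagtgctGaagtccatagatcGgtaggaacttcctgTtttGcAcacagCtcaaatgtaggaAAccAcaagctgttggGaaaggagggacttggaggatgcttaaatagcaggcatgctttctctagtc
Over 252 aligned columns, 4 of them gaps, 200 were identical (79.4%). The end next to the start site was nearly the same, with 59 of the last 60 bases identical. Both strands were searched for 3 motifs. GAGGAA, a core of sites for the myeloid factor PU.1, had no match in either window and matches in 23.3% of 32851 mouse promoter windows. TATAAA, the core of the TATA box, also had none in either window, and was found in 12.4% of all. TTGCNNAA, a form of the C/EBP site, had 1 match in the *Lyz1* window, starting 209 bases before the start, none in the *Lyz2* window, and matches in 9.56% of all. These matches describe letters in the windows only, and other forms of the sites were not searched.

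The libraries held 23389488 to 32231206 estimated counts. Macrophage markers were high in every library, with the 6 markers summed at 4119 to 4847 CPM (counts scaled to a common library total, here by TMM) in WT and 3752 to 4679 CPM in *Drp1* KO. Of them, *Csf1r* and *Mertk* were called lower and *Fcgr1* higher in *Drp1* KO, beside 1.06% of all genes called lower and 2.29% called higher. Neutrophils also express *Lyz2*: the 12 neutrophil markers summed to 91.2 to 99.0 CPM in WT and 122 to 224 CPM in *Drp1* KO, most of it *Mmp8*, with 9 of 9 tested members at higher fitted values, none passing in edgeR or limma-voom (6 with unadjusted p under 0.05, beside 16.4% of all genes, and 3 passing in DESeq2, beside 8.8%), and *Ly6g* at 0 in all libraries. With the replicate number as a block, 6 neutrophil markers passed, beside 12.0% of all genes. Monocytes express *Lyz2* as well: their 4 markers summed to 3.49 to 7.77 CPM in WT and 5.99 to 13.6 CPM in *Drp1* KO, with 4 of 4 at higher fitted values, none passing in edgeR, DESeq2 or limma-voom (2 with unadjusted p under 0.05, beside the same 16.4%) and 2 passing with the block, beside the same 12.0%. The 5 dendritic cell markers summed to 2.80 to 4.09 CPM in WT and 1.45 to 2.90 CPM in *Drp1* KO, with 3 of 3 tested members at lower fitted values and none passing (1 with unadjusted p under 0.05, beside 16.4% of all genes). DESeq2 gave no adjusted p to *Ly6c2*, *Plac8*, *Flt3*, *Mpo*, *Prtn3* and *Camp*, so these markers could not pass in it. Its 8.8% is of the 13119 genes that were given one. The lymphocyte and fibroblast lists summed to at most 5.77 CPM in any library. The 4 Paneth cell markers, *Defa24*, *Defa30*, *Mptx2* and *Ang4*, had 0 counts in all 6 libraries, which allows up to 3 counts per library, or 0.0917 to 0.136 CPM. The part of these other cell types in the lysozyme values was not tested. *Dnm1l*, the deleted gene, had 72.7, 69.9 and 75.1 CPM in WT and 58.7, 60.7 and 66.3 CPM in *Drp1* KO (log2 fold change -0.23, SE 0.0921), and did not pass (edgeR's quasi-likelihood test, adjusted p = 0.248). This value sums 7 transcripts, and does not show whether the floxed part was deleted. By immunoblot, the paper reports deletion of DRP1 protein in BMDMs of the *Drp1* KO mice.

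Levels of the genes can be compared with each other only per length, as TPM, in which each count is divided by the effective length and each library is scaled to the same total. *Lyz2* had 12168, 12301 and 12508 TPM in WT libraries 1 to 3 and 9724, 9877 and 12514 TPM in *Drp1* KO libraries 1 to 3. It took 0.972% to 1.25% of all TPM and ranked 5 to 8 among all genes. *Drp1* KO libraries 1 and 2 were below every WT library, and *Drp1* KO library 3 was level with the highest of them. *Lyz1* had 127, 118 and 119 TPM in WT and 63.7, 60.6 and 104 TPM in *Drp1* KO, and ranked 1118 to 1202 in WT and 1310 to 2210 in *Drp1* KO. Here all 3 *Drp1* KO libraries were below WT, with library 3 the nearest to it. The ratio of *Lyz2* to *Lyz1* in TPM was 95.8, 104 and 105 in WT and 153, 163 and 121 in *Drp1* KO, so per length *Lyz2* exceeded *Lyz1* by far in every library and by more in each *Drp1* KO library than in any WT library. The effective lengths that enter TPM were 967 to 991 bases in WT and 1016 to 1028 bases in *Drp1* KO for *Lyz1*, and 1040 to 1062 and 1080 to 1095 bases for *Lyz2*. They were higher in *Drp1* KO for both genes, and what part this had in the TPM values was not tested.

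The estimated counts behind *Lyz2* were 229281, 254320 and 265536 in WT and 187565, 267512 and 324764 in *Drp1* KO. Scaled for depth, these came to 9887, 9532 and 9048 CPM in WT (9489 ± 421, SD, n = 3) and 8515, 8173 and 9961 CPM in *Drp1* KO (8883 ± 949, SD, n = 3). The groups overlapped, since *Drp1* KO library 3 was above all WT libraries. The log2 fold change of -0.10 (SE 0.118) did not pass in edgeR's quasi-likelihood test with Benjamini-Hochberg adjustment over 18506 genes (adjusted p = 0.784). It passed in none of 14 other settings, whose adjusted p ran from 0.549 to 0.961, and its fold change kept its sign in all of them.

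For *Lyz1* the estimated counts were 2234, 2275 and 2350 in WT and 1155, 1544 and 2534 in *Drp1* KO. Scaled for depth, these were 96.3, 85.3 and 80.1 CPM in WT (87.2 ± 8.31, SD, n = 3) and 52.4, 47.2 and 77.7 CPM in *Drp1* KO (59.1 ± 16.3, SD, n = 3). Every *Drp1* KO library was below every WT library, although *Drp1* KO library 3 came close to WT library 3, and 10.3% of all genes tested were likewise lower in *Drp1* KO without overlap. The log2 fold change of -0.56 (SE 0.171) had an unadjusted p of 0.00820 and an adjusted p of 0.120 in edgeR's quasi-likelihood test. An adjusted p under 0.05 was reached by 3.36% of genes in this fit (1.06% lower and 2.29% higher in *Drp1* KO). With the study's thresholds, a fold change over 1.25 and unadjusted p under 0.05, applied here to the edgeR fit rather than to the study's DESeq2 fit, *Lyz1* counted as lower, as did 5.48% of all genes, and *Lyz2* did not. By the same thresholds 7.19% of genes were higher.

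The call on *Lyz1* depended on how the 6 libraries were handled. With the replicate number as a block, the log2 fold change was -0.59 with an adjusted p of 0.0212 in edgeR, a fit in which 12.0% of genes passed. Within each numbered pair the log2 ratio of *Drp1* KO to WT was -0.88, -0.85 and -0.04 for *Lyz1*, and -0.22, -0.22 and 0.14 for *Lyz2*. The difference in *Lyz1* was thus carried by pairs 1 and 2, with almost none in pair 3. Without *Drp1* KO library 3 the log2 fold change was -0.80 (SE 0.119) with an adjusted p of 0.00997 in edgeR, where 1.93% of genes passed. *Lyz1* also passed with DESeq2 (adjusted p = 0.0297, where 8.8% passed) and with no filter beyond 1 count (edgeR, adjusted p = 0.0172, where 4.43% passed). It did not pass in the other 10 of the 14 settings, and was lower in *Drp1* KO in every one.

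**Figure D2:**
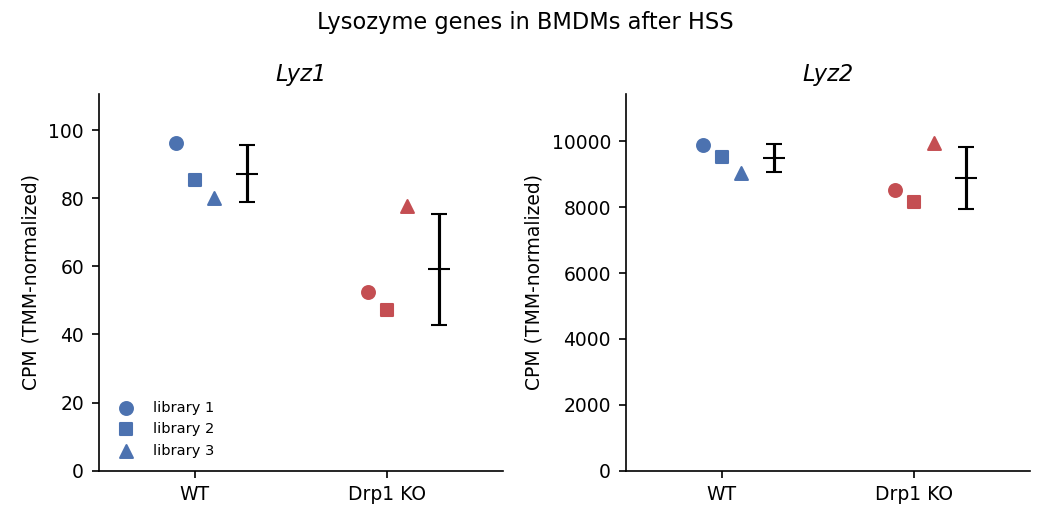
*Lyz1* (left) and *Lyz2* (right) in BMDMs after HSS, in TMM-scaled CPM on linear axes from 0. Each point is a library, with its replicate number by shape, WT in blue and *Drp1* KO in red, and the bars beside the points are the mean ± SD of 3 libraries. *Lyz1* in *Drp1* KO libraries sits at 47.2 to 77.7 CPM, below the WT range of 80.1 to 96.3 CPM, whereas the *Lyz2* ranges overlap.

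**Figure D3:**
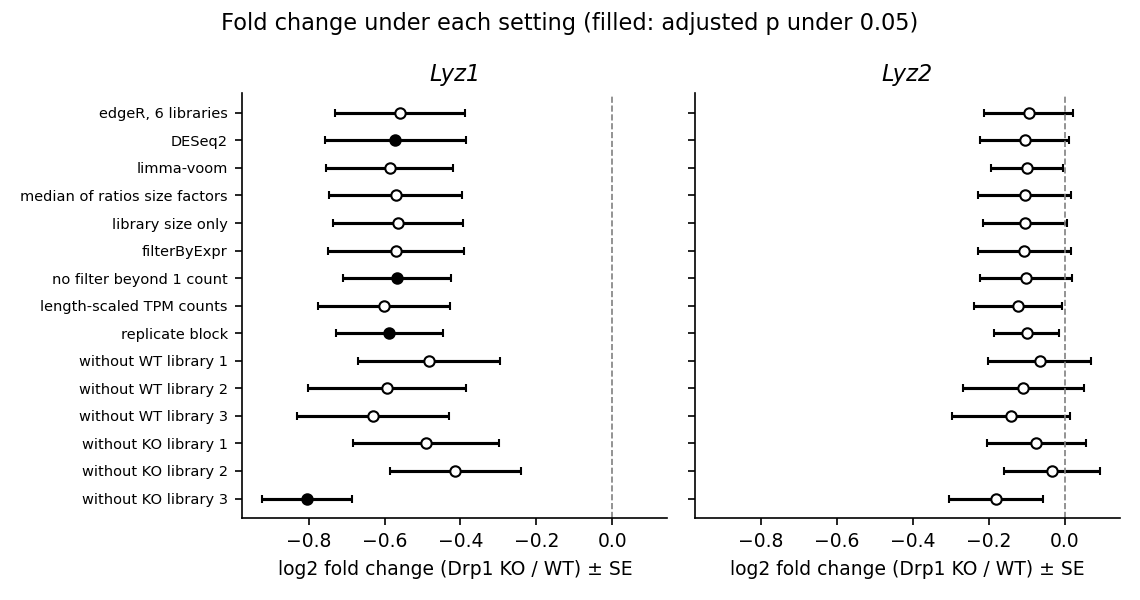
Log2 fold change of *Drp1* KO over WT with its SE for *Lyz1* (left) and *Lyz2* (right), in the fit reported and in 14 other settings, with filled points where the adjusted p was under 0.05. *Lyz1* runs from -0.80 to -0.41 and is filled in 4 of the 14 settings, and *Lyz2* runs from -0.18 to -0.03 and is filled in none.

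Since both genes may exchange reads, they were also added into 1 feature before the fit. The sum was 9984, 9617 and 9128 CPM in WT and 8568, 8220 and 10038 CPM in *Drp1* KO. It followed *Lyz2*, with overlapping groups. Its log2 fold change was -0.10 (SE 0.118, edgeR's quasi-likelihood test, adjusted p = 0.772), and it passed in none of the 14 settings.

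The division of the counts between the genes does not depend on depth scaling. It may depend on the effective lengths, which were higher in *Drp1* KO for both genes, and this was not tested. *Lyz1* took 0.965% (95% Clopper-Pearson interval 0.926 to 1.01), 0.887% (0.851 to 0.924) and 0.877% (0.842 to 0.913) of the lysozyme counts in WT libraries 1 to 3. In *Drp1* KO libraries 1 to 3 it took 0.612% (0.577 to 0.648), 0.574% (0.546 to 0.603) and 0.774% (0.744 to 0.805). No *Drp1* KO interval overlapped a WT interval, and *Drp1* KO library 3 stood apart from the other *Drp1* KO libraries by more than its interval. These intervals cover counting error only, and leave out the error of dividing shared reads. The mean share differed by -0.256 percentage points (*Drp1* KO minus WT), with p = 0.1 in a two-sided exact permutation test, the smallest p that 3 against 3 libraries allow. From TPM the difference was -0.281 percentage points. Within pairs 1 to 3 the difference was -0.353, -0.313 and -0.103 points. With every *Drp1* KO share below every WT share, any pairing of the libraries gives values below 0. With *Lyz2* this far above *Lyz1*, a reassignment of *Lyz2* reads that is small for *Lyz2* would be large for *Lyz1*, and how much of the *Lyz1* count came from such reads was not tested.

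**Figure D4:**
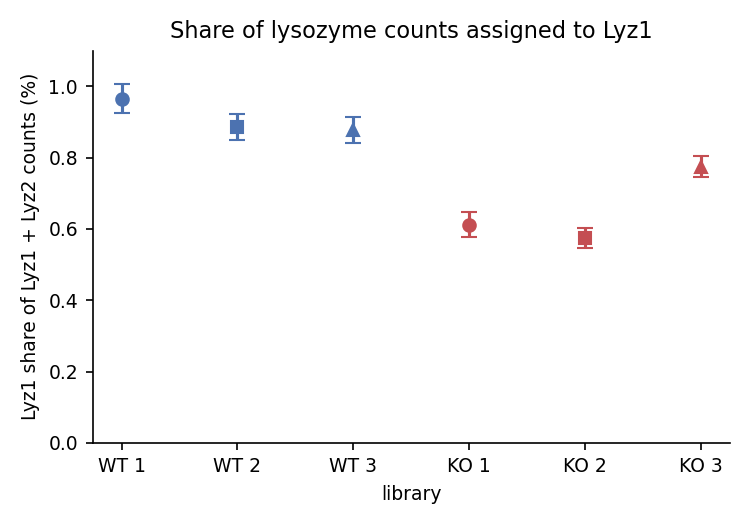
Percent of the *Lyz1* plus *Lyz2* estimated counts that was assigned to *Lyz1*, in each library, with 95% Clopper-Pearson intervals that cover counting error only. WT libraries lie at 0.877% to 0.965% and *Drp1* KO libraries at 0.574% to 0.774%.

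A test per transcript over 62316 transcripts gave nearly the same fold changes, as each gene had only 1 transcript counted. The log2 fold change was -0.56 (SE 0.202, edgeR's quasi-likelihood test, adjusted p = 0.393) for the *Lyz1* transcript and -0.10 (SE 0.103, adjusted p = 0.876) for the *Lyz2* transcript. Neither passed, in a fit where 0.334% of transcripts did.

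Other genes of the lysozyme family were nearly silent. Of 9 measured, *Lyzl1*, *Spaca3*, *Lalba* (the milk protein alpha-lactalbumin), *Lyg1* and *Lyg2* (lysozymes of the goose type) had 0 counts in all 6 libraries. *Lyz3*, which lies 36.9 kb from *Lyz2*, had 4 counts in all WT and 3 in all *Drp1* KO libraries. *Lyzl6* had 3 and 0 counts, and the sperm gene *Spaca5* 3 and 4. *Lyzl4*, another gene known from sperm, was the only one with enough counts to test, at 57 counts in WT and 64 in *Drp1* KO (log2 fold change 0.02, SE 0.336, edgeR adjusted p = 0.993). Nearly all lysozyme counts of these cells were thus assigned to *Lyz2*.

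Lysozyme releases muropeptides, the fragments of peptidoglycan that NOD1 and NOD2 sense in the cytosol. Among 16 genes for handling and sensing these fragments, 14 were tested, 6 with higher and 8 with lower fitted values in *Drp1* KO, and the median log2 fold change was -0.02, against 0.005 over all genes tested. *Ripk2*, the kinase that both NOD receptors signal through, was the single member called, 1 of 14 against 3.36% of all genes. It had 23.2, 22.3 and 20.6 CPM in WT and 31.9, 30.6 and 28.9 CPM in *Drp1* KO. All *Drp1* KO libraries were above all WT libraries (the groups did not overlap in 21.9% of all genes), and *Ripk2* rose by a log2 fold change of 0.47 (SE 0.104, edgeR's quasi-likelihood test, adjusted p = 0.0384). The call was lost with length-scaled counts (adjusted p = 0.0779), and with any single library left out except WT library 1 (edgeR, adjusted p of 0.0665 to 0.211). The receptors themselves had log2 fold changes of -0.02 for *Nod1* and 0.28 for *Nod2*, and did not pass.

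Transporters that bring muropeptides into the cytosol did not pass on all 6 libraries, and 2 of them, *Slc15a3* and *Slc15a4*, had log2 fold changes of 0.01 and 0.02. *Slc46a3* had 74.1, 66.5 and 73.3 CPM in WT and 56.2, 59.0 and 59.6 CPM in *Drp1* KO (log2 fold change -0.29, edgeR adjusted p = 0.131, and 0.0359 with the replicate block). With length-scaled counts its log2 fold change was -0.09 (edgeR adjusted p = 0.772). *Slc15a2* had 3.75, 3.75 and 4.70 CPM in WT and 2.18, 0.275 and 3.01 CPM in *Drp1* KO (log2 fold change -1.17, SE 0.552, edgeR adjusted p = 0.329). *Drp1* KO library 2 held only 9 counts of *Slc15a2*, and the log2 fold change was -0.63 without it, -1.81 without *Drp1* KO library 3 and -1.79 with limma-voom. In both transporters the groups did not overlap, as in 21.9% of all genes tested. *Tlr2*, the surface receptor for bacterial lipoproteins, had 21.3, 20.1 and 16.6 CPM in WT and 16.8, 14.8 and 13.9 CPM in *Drp1* KO, with overlapping groups (log2 fold change -0.35, edgeR adjusted p = 0.223, and 0.0377 with the replicate block).

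Lysozyme works in the phagosome beside oxidants, metal transporters and metal-binding proteins. All 13 genes listed for these effectors were tested, 9 with higher and 4 with lower fitted values, with a median log2 fold change of 0.28 (0.11 without *Drp1* KO library 1). None passed in edgeR or limma-voom (3.36% and 3.37% of all genes did), 1 passed in DESeq2 (8.8% of genes given an adjusted p) and 5 with the replicate block (12.0% of all genes). DESeq2 gave no adjusted p to *Camp*. An unadjusted p under 0.05 in edgeR was found for 4 of the 13 and for 16.4% of all genes. *Lcn2*, encoding the siderophore-binding lipocalin 2, was near 1 CPM in WT, at 1.08, 1.57 and 1.57, and had 1.86, 4.03 and 3.40 CPM in *Drp1* KO. Its groups did not overlap, as in 21.9% of all genes tested (log2 fold change 1.14, SE 0.315, edgeR adjusted p = 0.0870). *Lcn2* passed with the replicate block (0.00602), with DESeq2 (0.0211), with no filter beyond 1 count (0.0252) and without *Drp1* KO library 1 (0.0169). *Ltf*, the iron-binding lactoferrin, had 0.517, 2.02 and 2.11 CPM in WT and 2.22, 4.12 and 3.22 CPM in *Drp1* KO (log2 fold change 1.03, edgeR adjusted p = 0.260, and 0.0194 with the block), and 0.63 without WT library 1. Both are also neutrophil granule genes, and stand in the neutrophil list above.

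*Ncf4*, encoding a subunit of the phagocyte NADPH oxidase, had 56.6, 55.5 and 48.6 CPM in WT and 65.5, 63.8 and 65.6 CPM in *Drp1* KO (log2 fold change 0.28, edgeR adjusted p = 0.167, and 0.0453 with the block), and 0.44 with length-scaled counts. Its groups did not overlap, with every *Drp1* KO library above WT (the groups did not overlap in 21.9% of all genes tested). *Mpeg1*, the pore-forming perforin-2 of macrophages, had 4298 to 4478 CPM in WT and 4199 to 4532 CPM in *Drp1* KO (log2 fold change -0.02, edgeR adjusted p = 0.976).

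The *Lyz2* promoter is known to be driven by PU.1, C/EBP factors and other regulators of myeloid genes. All 10 genes listed for these factors were tested, 5 with higher and 5 with lower fitted values, and the median log2 fold change was -0.01. None passed in edgeR, DESeq2 or limma-voom, 2 passed with the replicate block (12.0% of all genes did), and 3 had an unadjusted p under 0.05 in edgeR (16.4% of all genes did). DESeq2 gave no adjusted p to *Cebpe*. *Spi1*, encoding PU.1, had 115, 98.3 and 101 CPM in WT and 128, 103 and 98.6 CPM in *Drp1* KO (log2 fold change 0.07, edgeR adjusted p = 0.857), with overlapping groups. *Cebpa*, encoding C/EBPα, had 48.6, 39.5 and 43.1 CPM in WT and 41.8, 31.8 and 28.2 CPM in *Drp1* KO (log2 fold change -0.37, edgeR adjusted p = 0.249, 0.0228 with the replicate block and 0.0396 without *Drp1* KO library 1). The groups overlapped here too, although *Cebpa* was lower in *Drp1* KO within each pair. *Klf4*, a factor of monocyte differentiation, had 28.8, 18.5 and 18.1 CPM in WT and 44.0, 32.5 and 24.2 CPM in *Drp1* KO (log2 fold change 0.62, edgeR adjusted p = 0.204, 0.00247 with the block and 0.0456 with no filter beyond 1 count). Without *Drp1* KO library 1 its log2 fold change was 0.37 (edgeR adjusted p = 0.417). *Gabpb1*, a subunit of the ETS factor GABP, and *Runx1* had log2 fold changes of 0.36 and 0.12 (edgeR adjusted p of 0.231 and 0.624), and *Runx1* had 0.04 with length-scaled counts, 0.08 when WT library 2 was dropped and 0.18 when *Drp1* KO library 2 was.

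A knock-in is inherited together with the genes around it, so the other protein-coding genes within 500 kb of *Lyz2* were described as well. Of 13 measured, 9 were tested, 2 with higher and 7 with lower fitted values, and the median log2 fold change was -0.05. *Yeats4*, which encodes the acetyl-lysine reader GAS41 and lies 51.1 kb from *Lyz2* (chromosome 10, 117051047 to 117060432), was the only one called, 1 of 9 against 3.36% of all genes. It had 45.0, 43.7 and 44.7 CPM in WT and 33.8, 34.0 and 29.4 CPM in *Drp1* KO, without overlap between the groups, as in the 10.3% of all genes given above. *Yeats4* fell by 0.46 on the log2 scale (log2 fold change -0.46, SE 0.0992, edgeR's quasi-likelihood test, adjusted p = 0.0354). The call was lost with length-scaled counts (adjusted p = 0.0779) and without any single library other than *Drp1* KO library 1 (edgeR, adjusted p of 0.0547 to 0.133). *Lyz1*, which is not counted among these 9, had a lower fitted value than any of them on all 6 libraries. *Yeats4* was the lower one without *Drp1* KO library 1 (-0.497 against -0.491) and without *Drp1* KO library 2 (-0.489 against -0.413). *Cpsf6* (a subunit of the mRNA cleavage factor CFIm), 62.2 kb away, had a log2 fold change of -0.11 (edgeR adjusted p = 0.677), which was -0.50 with length-scaled counts (edgeR adjusted p = 0.0643) and -0.05 without *Drp1* KO library 1. *Frs2* and *Mdm2* (the ubiquitin ligase of p53) had -0.09 and 0.24 (edgeR adjusted p of 0.748 and 0.514). With a library left out, *Frs2* reached -0.16 (without WT library 2), and *Mdm2* was 0.43 when WT library 1 was dropped, 0.15 or 0.12 when WT library 2 or 3 was, and 0.11 when *Drp1* KO library 1 was. Both groups carry 1 Cre allele by the study's methods, and whether the genotype around the locus was the same in both was not tested.

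**Figure D5:**
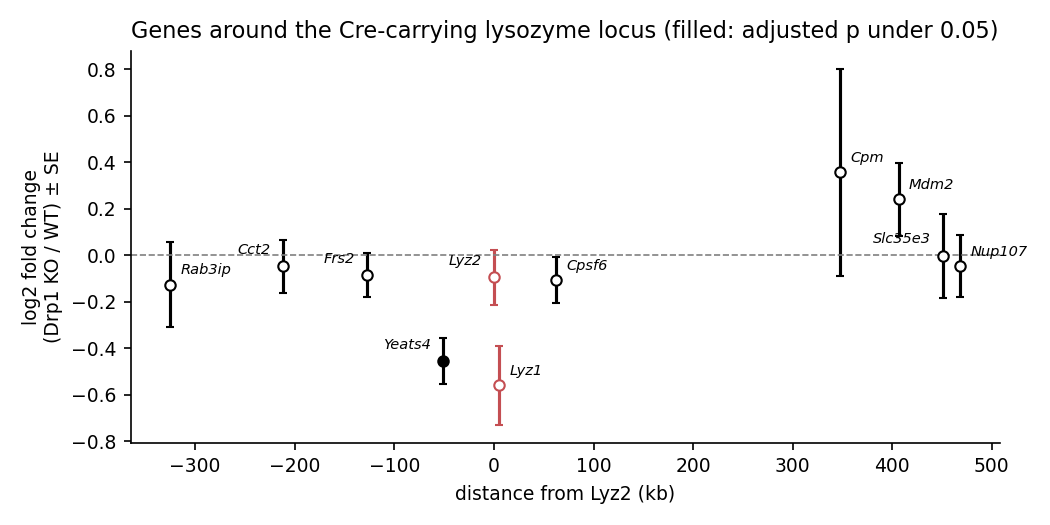
Log2 fold change of *Drp1* KO over WT with its SE for *Lyz2*, *Lyz1* (both red) and the other tested protein-coding genes within 500 kb, against the distance from *Lyz2* in kb. The filled point, *Yeats4* at -0.46, is the only one with an adjusted p under 0.05, and *Lyz1* at -0.56 is the lowest.

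Genes with the most similar pattern over the 6 libraries were ranked by Pearson's r of log2 CPM among 7953 genes of at least 10 CPM, as a description only, since the libraries share depth and group. Nearest to *Lyz1* were *Pola2* (r = 0.977), *Pgk1* (0.975), *Fam43a* (0.974), *Hmgcs1* (0.965) and *Asb4* (0.956). *Pola2* encodes a subunit of DNA polymerase alpha, *Pgk1* the glycolytic phosphoglycerate kinase and *Hmgcs1* the synthase of HMG-CoA in the cholesterol pathway. None of these 5 passed between the groups, and the nearest to the threshold was *Asb4* (log2 fold change -0.54, edgeR adjusted p = 0.0592). Nearest to *Lyz2* were *Cpne1* (r = 0.973), *Tfb2m* (0.961), *E2f1* (0.956), *Smim13* (0.934) and *Dcaf10* (0.929). *Tfb2m* is a factor for transcription of mitochondrial DNA and *E2f1* a factor of cell cycle entry. *Lyz1* was rank 9 in the list of *Lyz2*, and *Lyz2* rank 46 in that of *Lyz1* (r = 0.909).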

How the data were processed

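RNA-seq of 3 WT and 3 *Drp1* KO BMDM libraries was used, grouped by the genotype in the labels. The authors made poly(A)-selected, stranded libraries and quantified them with kallisto 0.46.1 against Ensembl cDNA of GRCm39. The deposited values per transcript are estimated counts, which are not whole and are not scaled between libraries, and TPM, which the authors' tool scales by effective length and depth. For 17986 transcripts a deposited effective length is above the length in 1 or more libraries. The authors ran DESeq2, version 1.44.0 per the submitters' processing notes, while the paper's methods name an earlier version. The total of 23389488 to 32231206 estimated counts per library sets a floor of 3 counts, or 0.0917 to 0.136 CPM.

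Transcripts were matched by identifier to GENCODE (99.4% of 116873), and unmatched ones, 0.542% to 0.575% of each library's counts, were left out. Counts were summed per gene and rounded. Genes with at least 10 counts in total were tested with edgeR 4.0.16 in R 4.3.3 (TMM, quasi-likelihood test, *Drp1* KO against WT, Benjamini-Hochberg adjustment over all genes tested), which was checked on simulated data. Each SE was taken as the log2 fold change over the root of the test's F. Replicate numbers come from the labels. Same-numbered libraries deviated together from their group means (correlations of 0.510, 0.204 and 0.298 over 12248 genes, all above 0.1), so the numbers were taken to pair them, although WT library 2 correlated more with *Drp1* KO library 3 (0.326) than pairs 2 and 3 did within themselves. The 14 other settings were DESeq2 1.42.0, limma-voom (limma 3.58.1), median-of-ratios size factors, library size only, filterByExpr, no filter beyond 1 count, length-scaled counts, the replicate block and each library left out. Sequences came from GRCm39 with GENCODE and from RefSeq promoters of GRCm38.p6 (2 of 2 genes matched).

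The members and gene lists were chosen with earlier results of these data known. Named genes were *Lyz1*, *Lyz2*, *Dnm1l*, the other lysozyme family genes, in each list the members with adjusted p under 0.05 plus the 4 with the smallest p, and the 5 genes most like each member by Pearson's r. The values of 1 gene that this rule names are not reported here. *Nod1*, *Nod2*, *Slc15a3*, *Slc15a4*, *Mpeg1*, *Spi1* and the markers named lie outside that rule and were named after their values were seen.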

Additional observations from a re-analysis of the deposited data

How the results depend on the processing

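*Lyz1* was the lysozyme result that depended on the setting. Its log2 fold change passed with DESeq2 (-0.57), with no filter beyond 1 count (-0.57) and with the replicate block (-0.59), and ran from -0.80 to -0.41 with a library left out, passing only without *Drp1* KO library 3. *Lyz2*, the sum of both genes, *Dnm1l* and both transcripts kept their direction and did not pass in any setting run (14 for genes, 8 for transcripts). With a library left out, *Lyz2* ran from -0.18 to -0.03, the sum from -0.19 to -0.04, and the difference in *Lyz1* share from -0.317 to -0.217 percentage points. The block changed no call on these other than *Lyz1*.

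The number of genes called, 621 on all 6 libraries, was 1155 with DESeq2, 1065 with no filter beyond 1 count, 2212 with the replicate block and 181 to 904 with a library left out. The muropeptide list had 1 call, 0 with length-scaled counts, 3 with the block, and 0 to 1 with a library left out, where its median ran from -0.112 to 0.036. The phagosome list had 0 calls, 1 with DESeq2, 1 with no filter, 5 with the block and 0 to 1 with a library left out, and its median ran from 0.11 to 0.37. The promoter factors had 0 calls, 1 with no filter, 2 with the block and 0 to 1 with a library left out, where their median ran from -0.089 to 0.120. The genes around *Lyz2* had 1 call, 0 with length-scaled counts and 0 to 1 with a library left out, where their median ran from -0.113 to -0.006. The cause of these changes was not tested. The number of libraries, 3 per group, limits the *Lyz1* value, and the effect of the stretches it shares with *Lyz2* was not tested. *Lyz1* rests on 1155 to 2534 estimated counts per library beside 187565 to 324764 for *Lyz2*.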
